A study of Homo sapiens with 2 samples.

Results

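The data on 10 genes of the ATF4 pathway are described here, of the 57485 genes in the deposited tables. They comprise the transcription factors ATF4, ATF5, ATF3, JDP2, DDIT3, CEBPB and CEBPG, and the feedback genes TRIB3, PPP1R15A and NUPR1. The genes were taken by name, and the set was chosen by the ratios that the same libraries had given in earlier work, so those ratios are a description and support no statement on their own. RNA-seq was performed on ARP1-SRD5A1-KD cells. This is the human multiple myeloma (MM) line ARP1, transduced with a TRIPZ lentivirus that makes a hairpin against SRD5A1, a steroid 5α-reductase, when doxycycline (Dox) is present. There was 1 library labelled as untreated and 1 labelled as treated with Dox (the untreated-labelled and the Dox-labelled library), both from cells that carry the vector. No library of ARP1 cells without the vector, and none of Dox without the SRD5A1 hairpin, was analysed here, so effects of Dox and of the hairpin cannot be told apart. The Dox dose and time of these libraries are not given in the sources used here, nor is the number of clones, and the genotype label of the Dox-labelled library names SRD5A2 in place of SRD5A1.

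ATF4 is the main transcription factor of the integrated stress response. Several kinases that sense amino acid shortage, misfolded protein in the endoplasmic reticulum, double-stranded RNA or lack of heme phosphorylate the translation factor eIF2, which lowers protein synthesis in general while the ATF4 mRNA is translated more. ATF4 pairs with C/EBP-type partners on composite C/EBP-ATF elements and raises genes of amino acid supply, and its targets include further bZIP factors as well as brakes on the pathway. In plasma cells and MM, which secrete or retain large amounts of immunoglobulin, this response is of interest because the load on the endoplasmic reticulum is high.

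The untreated-labelled library held 45918570 expected counts and the one labelled with Dox 48728927, so that 3 counts equal 0.0653 and 0.0616 of every 1000000 counts. All 10 plasma cell markers were listed at 15.7 FPKM or more in both libraries. Of 12 markers of other cell types none exceeded 6 FPKM, and their summed level was 9.66 and 6.26 FPKM. SRD5A1, the targeted gene, had 1375 counts and 13.04 FPKM in the untreated-labelled library, and 3014 counts and 25.88 FPKM in the Dox-labelled library. Its level was therefore higher, not lower, where the label names Dox (log2 ratio 0.98, range over all settings 0.77 to 1.08), and each direction below is that of the labels. Were the labels of the libraries exchanged, every direction would turn, and these tables cannot decide this. FPKM divides the count of a gene by its effective length and the library total. The log2 ratio sets the FPKM plus 0.1 of the Dox-labelled library over the same sum of the other, so that ratios of weakly expressed genes come out too small, and a gene was called at a ratio of 2-fold or more if it reached 1 FPKM in either library. With 1 library per condition no ratio has a replicate check and no test could be run. The width of the 95% intervals of the log2 ratios was computed from the counts by the Clopper-Pearson method and set around the FPKM ratio. These intervals cover counting error only, so a ratio of counts alone can lie outside them where the listed lengths differ. Bulk RNA cannot tell apart fewer cells that express a gene from less of its RNA in each cell.

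The elements that ATF4 and its partners are known to bind were searched in RefSeq promoter windows (GRCh38.p14, 250 bases before to 50 after each start). The letters of the C/EBP-ATF element, TGATGCAA, were found on either strand in 0.866% of 35116 windows and in 1.08% of 27305 genes. Of the 9 members with a window, which have 20 windows together, CEBPG and JDP2 held them. ATF3 joined these with the relaxed form TGATGNAA, which includes the former and is found in 3.62% of windows and 4.46% of genes. The cAMP response element TGACGTCA, bound by ATF and CREB factors, occurs in 1.85% of windows and 2.25% of genes. It was held by PPP1R15A alone among the members. The 4 stretches below show these matches in the windows of 4 members that were higher in the Dox-labelled library. Each is read on the forward strand, with the matching letters in capitals and up to 40 bases on either side.
CEBPG, chr19:33374031-33374112: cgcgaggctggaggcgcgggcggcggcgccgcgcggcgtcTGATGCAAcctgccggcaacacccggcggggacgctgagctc
JDP2, chr14:75427966-75428021: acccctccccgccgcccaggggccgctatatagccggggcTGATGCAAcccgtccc
ATF3, chr1:212565176-212565263: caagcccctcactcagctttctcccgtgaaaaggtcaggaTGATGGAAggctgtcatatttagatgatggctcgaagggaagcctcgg
PPP1R15A, chr19:48872323-48872391: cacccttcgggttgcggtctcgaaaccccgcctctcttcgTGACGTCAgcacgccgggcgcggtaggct

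The matches begin 42, 16, 191 and 58 bases before the RefSeq start of the window shown for CEBPG, JDP2, ATF3 and PPP1R15A, respectively. They lie in 1 of 2 windows of CEBPG and of ATF3, in 1 of 3 of JDP2 and in the only window of PPP1R15A. Which start the cells used was not tested. Against the first base of the gene in GENCODE 29, those of ATF3 and PPP1R15A lie 118 and 29 bases before it, whereas those of CEBPG and JDP2 lie 741 and 290 bases after it, inside the gene but in none of its exons. The letters TGANTCA are a loose form of the AP-1 site with any base in the middle, so not each match is an AP-1 site. They were found in 7.71% of windows and 9.37% of genes, and ATF5 and DDIT3 held them. The short core TGACGT, found in 7.98% of windows and 9.64% of genes, was held by PPP1R15A and JDP2. No window of ATF4, CEBPB or TRIB3 held any of these letters. Among 38 genes of the ATF4 target lists with a window, 12 (31.6%) held TGATGCAA, including CHAC1 and the synthetase genes AARS1, CARS1, IARS1, MARS1, NARS1 and TARS1. The lists hold known ATF4 targets, compiled with results of these libraries known, and the members were taken by name from the pathway. These shares are thus not independent of that choice, and nothing is read from them. A match is a description of the letters in a window and not of binding in these cells.

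Of the 10 genes, 8 were called higher in the Dox-labelled library. At 1 FPKM or more in either library 9 of them were counted, 8 of these were higher by 2-fold or more and 0 were lower, beside 17.0% of all 14859 genes counted that were higher and 6.43% that were lower. With TMM factors in place of the library totals, the split over all genes was 13.1% higher and 10.3% lower. The median log2 ratio was 2.61 over the 9 genes and 0.15 over all genes. Since these ratios led to the choice of the set, nothing is read from that difference. The 10 genes together took 0.0709% of the counts in the untreated-labelled library and 0.248% in the Dox-labelled library. Their summed level was 517.77 and 1700.37 FPKM.

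**Figure D1:**
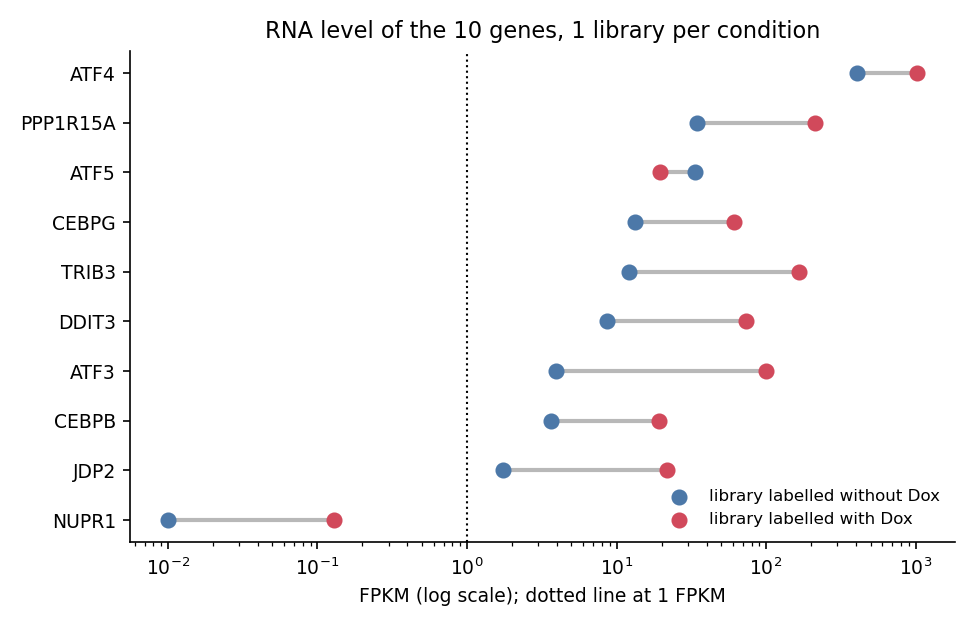
RNA level of the 10 genes in FPKM (log axis), 1 point per library, with a dotted line at 1 FPKM; the grey bar joins the 2 libraries of a gene and is no error. ATF4 is highest in both (406.22 and 1026.75 FPKM), ATF5 is the one gene with the lower point in the Dox-labelled library, and NUPR1 lies below 1 FPKM in both.

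ATF4 (ENSG00000128272.14, chr22:39519695-39522685, forward strand) is the central factor of the pathway, and the positions here and below are those of GENCODE 29 on GRCh38. It had 22539 counts, 406.22 FPKM and 445.66 TPM in the untreated-labelled library, and 59384 counts, 1026.75 FPKM and 1204.66 TPM in the Dox-labelled library. The log2 ratio was 1.34 (95% interval 1.32 to 1.36), or 2.53-fold, which is the smallest among the 8 higher members and places ATF4 at rank 1613 of 14859. ATF4 was already abundant in the untreated-labelled library, at or above 98.2% of the genes with at least 1 FPKM there. It provided 78.5% of the summed FPKM of the 10 genes in that library and 60.4% in the other. These are levels of mRNA, while the best known control of ATF4 is on its translation and was not measured.

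ATF5 (ENSG00000169136.10, chr19:49928702-49933935, forward strand), the close relative of ATF4 whose translation also responds to eIF2 phosphorylation, went the other way. It was listed with 2338 counts, 33.51 FPKM and 36.76 TPM without the Dox label, and 1381 counts, 19.4 FPKM and 22.77 TPM with it. The log2 ratio of -0.79 (95% interval -0.88 to -0.69) made ATF5 the only member with a lower value, 1.73-fold higher in the untreated-labelled library. It stayed short of 2-fold, except with DESeq2 size factors, where the ratio was -1.0. The FPKM of ATF4 was 12.1 times that of ATF5 in the untreated-labelled library and 52.9 times in the Dox-labelled library. NUP62 overlaps ATF5 by 1062 bases on the opposite strand and had 94.38 and 74.41 FPKM, and IL4I1 by 838 bases with 4.22 and 9.2 FPKM. AC011452.1, not analysed here, covers all 5234 bases of ATF5 on the opposite strand. Whether the counting used the strand is not stated, so reads of these genes and of ATF5 may not be separable, and their part in the ratio was not tested.

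ATF3 (ENSG00000162772.16, chr1:212565334-212620777, forward strand), a stress-induced bZIP repressor and activator, had the highest ratio of the set. It went from 253 counts, 3.94 FPKM and 4.32 TPM in the untreated-labelled library to 5331 counts, 99.71 FPKM and 116.99 TPM in the other. This is a log2 ratio of 4.63 (95% interval 4.44 to 4.81), or 25.3-fold, at rank 65 of all genes counted. The mean length over which its reads were set also differed, with 1643 bases in the untreated-labelled library and 1343 in the other, which raises the FPKM ratio over the ratio of counts. On counts over the library total alone, the log2 ratio was 4.29, below the interval set around the FPKM ratio. The count ratio itself was 19.9 (95% interval 17.5 to 22.6). The coding genes nearest in ratio, among those that reached 10 FPKM in either library, were SESN2 (4.63), SLC6A9 (4.67) and CHAC1 (4.45), a likeness over 2 libraries only.

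JDP2 (ENSG00000140044.12, chr14:75427716-75474111, forward strand), the nearest paralog of ATF3 and a repressor that dimerizes with JUN, was low in the untreated-labelled library. There it had 124 counts, 1.73 FPKM and 1.90 TPM, against 1405 counts, 21.91 FPKM and 25.71 TPM in the Dox-labelled library. Its log2 ratio was 3.59 (95% interval 3.32 to 3.87), or 12.7-fold, and 3.07 with a pseudocount of 1 FPKM, the lowest of the settings tried. Both paralogs were thus higher in the same library, yet ATF3 exceeded JDP2 in FPKM by 2.28 times in the untreated-labelled library and by 4.55 times in the one with.

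DDIT3 (ENSG00000175197.12, chr12:57516588-57521737, reverse strand) encodes CHOP, a C/EBP-like factor that is linked to cell death under lasting stress. It had 273 counts, 8.69 FPKM and 9.53 TPM in the untreated-labelled library. The Dox-labelled library had 2359 counts, 72.9 FPKM and 85.53 TPM, a log2 ratio of 3.05 (95% interval 2.87 to 3.24), or 8.39-fold. MARS (now MARS1) and MBD6 overlap DDIT3 by 982 and 1028 bases on the opposite strand. Their levels went from 308.83 to 793.14 FPKM (log2 ratio 1.36) and from 17.32 to 44.98 FPKM (1.37). Both ratios are below that of DDIT3. AC022506.1, annotated as protein-coding, overlaps 2769 bases of DDIT3 on the same strand, where even a count by strand would not separate the pair, and was not analysed here. The part that reads of these genes have in the DDIT3 value was not tested.

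CEBPB (ENSG00000172216.5, chr20:50190734-50192689, forward strand) and CEBPG (ENSG00000153879.8, chr19:33373330-33382686, forward strand) encode partners of ATF4, the latter without a transactivation domain of its own. CEBPB had 285 counts, 3.62 FPKM and 3.97 TPM in the untreated-labelled library and 1604 counts, 19.24 FPKM and 22.58 TPM in the Dox-labelled library. CEBPG had 2320 counts, 13.28 FPKM and 14.57 TPM, and then 11014 counts, 60.67 FPKM and 71.18 TPM. The log2 ratios were 2.38 (95% interval 2.20 to 2.57) for CEBPB and 2.18 (2.12 to 2.25) for CEBPG. These intervals overlap, which is no test of the difference, and without replicates the order of the pair cannot be told. CEBPG stayed 3.67 and 3.15 times higher in FPKM than CEBPB. CEBPB-AS1, not analysed here, overlaps CEBPB by 765 bases on the opposite strand.

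Among the 6 genes of the C/EBP family, the summed level was 26.96 FPKM in the untreated-labelled library and 153.09 FPKM in the Dox-labelled library. CEBPG was the highest member in the former, with 49.3% of the sum, and DDIT3 in the latter, with 47.6%. DDIT3 had 32.2% and CEBPG 39.6% of the sum in the respective other library, while the share of CEBPB was 13.4% and 12.6%. The order of DDIT3 and CEBPG within a library has no replicate check. The remaining members lay below 1 FPKM. CEBPA, a factor of myeloid and liver cells, was listed at 0.72 and 0.23 FPKM, CEBPD at 0.63 and 0.05, and CEBPE at 0.02 and 0. The larger sum therefore came from 3 of the 6 genes, all of them among the 10 genes described.

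TRIB3 (ENSG00000101255.10, chr20:362835-397559, forward strand) encodes a pseudokinase that binds ATF4 and DDIT3 proteins and also AKT, and acts as a brake on ATF4. It had 1094 counts, 12.11 FPKM and 13.29 TPM in the untreated-labelled library, and 16513 counts, 166.97 FPKM and 195.9 TPM in the Dox-labelled library. The log2 ratio was 3.77 (95% interval 3.69 to 3.86), or 13.8-fold, at rank 132. Of the summed FPKM of the 3 Tribbles genes (207.5 and 506.66), TRIB3 had 5.84% and 33.0%. TRIB1, which recruits the ubiquitin ligase COP1, stayed the highest of the family with 123.48 and 284.09 FPKM (log2 ratio 1.20, under 2-fold with TMM factors or DESeq2 size factors). TRIB2 had 71.91 and 55.6 FPKM (-0.37), so that it was 5.94 times higher than TRIB3 in the untreated-labelled library, whereas TRIB3 was 3.0 times higher than TRIB2 in the Dox-labelled library.

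PPP1R15A (ENSG00000087074.7, chr19:48872392-48876057, forward strand) encodes GADD34, the inducible subunit that guides protein phosphatase 1 to eIF2 and restores translation. It was listed with 3349 counts, 34.66 FPKM and 38.03 TPM in the untreated-labelled library. In the other library it had 21950 counts, 212.69 FPKM and 249.54 TPM, a log2 ratio of 2.61 (95% interval 2.56 to 2.67), or 6.14-fold. PPP1R15B, the constitutive subunit for the same phosphatase, had 24.55 and 42.35 FPKM (0.78). The FPKM of PPP1R15A was 1.41 times that of PPP1R15B in the untreated-labelled library and 5.02 times in the Dox-labelled library.

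NUPR1 (ENSG00000176046.8, chr16:28532708-28539174, reverse strand), a small stress-induced chromatin protein, was close to the floor in both libraries. It had 2 counts and 0.01 FPKM in the untreated-labelled library and 9 counts and 0.13 FPKM in the other. Per library total this is a ratio of 4.24 with a counting interval of 0.878 to 40.3, so a difference was not detectable at this depth. NUPR1 was thus the one member left out of the counts by the filter on low values.

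**Figure D2:**
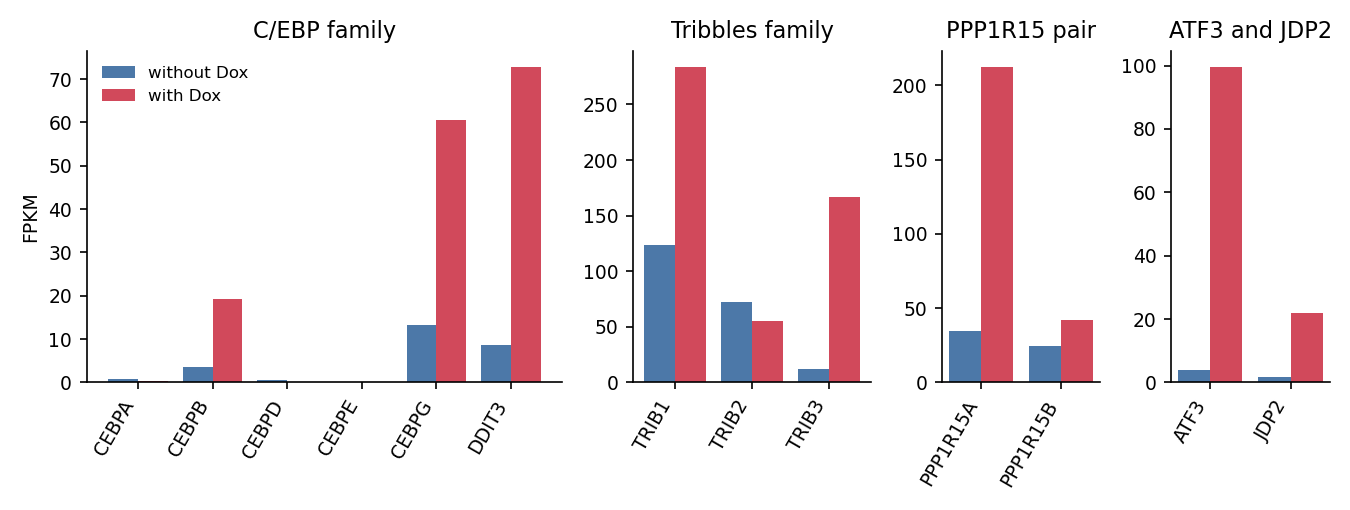
FPKM (bars from 0, a separate linear axis in each panel) of the C/EBP family, the Tribbles family, the PPP1R15 pair and the pair ATF3 and JDP2 in the untreated-labelled library (blue) and with Dox (red), 1 library each and so without error bars. In the Dox-labelled library TRIB3 (166.97 FPKM) passes TRIB2 (55.6) and PPP1R15A leaves PPP1R15B behind. DDIT3 (72.9) is listed above CEBPG (60.67) there, an order without a replicate check.

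The order of the 10 genes by FPKM thus differed between the libraries. ATF4 was first in both. PPP1R15A and ATF5 (34.66 and 33.51 FPKM) came next in the untreated-labelled library, while in the other PPP1R15A was second and ATF5 the eighth, and ATF3 was the seventh and then the fourth. The FPKM of ATF4 was 103 times that of ATF3 and 46.7 times that of DDIT3 in the untreated-labelled library, and 10.3 and 14.1 times in the Dox-labelled library. Neighbours such as PPP1R15A and ATF5 or ATF3 and CEBPB (3.94 and 3.62 FPKM) in the former, or ATF5 and CEBPB (19.4 and 19.24 FPKM) in the latter, cannot be ranked, as no library was replicated.

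The upstream ATG, a start codon in the leader before the coding sequence, is a feature of the transcripts and no value of these libraries. Through it translation of ATF4 is known to respond to eIF2. The genes were taken by name from this pathway, so the shares below are not independent of that choice. In 1 principal GENCODE 29 transcript per gene, 8 of the 10 genes (80%) had at least 1 upstream ATG, beside 51.3% of 19448 coding genes and 55.6% of 45 ATF4 target genes. In 4 members (40%) the reading frame of such an ATG ran past the main start, which was found in 17.1% of all coding genes and 11.1% of the target genes. These 4 were ATF4, ATF5, ATF3 and DDIT3. ATF4 had 7 upstream ATGs in a leader of 882 bases, of which 5 ended in the leader and 2 overlapped the start. DDIT3 had 3, ATF5 had 2 and ATF3 had 1, each with 1 overlapping frame. CEBPG and TRIB3 had 3 and PPP1R15A and NUPR1 had 2, all ending in the leader, and CEBPB and JDP2 had none. All ATGs were counted, whatever their context, and leaders of members are longer than most (median 286.5 against 178 bases). ATF5 and ATF4 share the overlapping frame, and their mRNA ratios had opposite signs. Translation was not measured, so nothing is read from the frames for these ratios.

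Of 45 other bZIP genes, relatives and partners of the members, 33 had at least 1 FPKM in either library, 7 (21.2%) were called higher and 3 (9.09%) lower, with a median log2 ratio of 0.50. These shares are near those of all genes, 17.0% and 6.43%, so the counts are no result about bZIP genes. The count of higher genes was 4 with TMM factors. JUN, a partner of ATF3 and JDP2, had the highest ratio, from 2.32 to 18.5 FPKM (2.94). NFE2L1, which controls proteasome genes, went from 77.26 to 291.43 FPKM (1.91). BATF3 had 7.47 and 17.03 FPKM (1.18), and the other higher genes were CREB3L2 (1.61), NFIL3 (1.27), CREB3L4 (1.14) and CREM (1.0). BATF3, CREB3L4 and CREM, the lowest of the 7, were short of 2-fold with TMM factors. FOS, the classical partner of JUN, had 5.04 and 5.3 FPKM (0.07), and ATF2 25.12 and 32.74 FPKM (0.38). The 3 lower genes, named after their values were seen, were FOSL1 (4.46 and 1.20 FPKM), BATF (19.41 and 7.27) and MAFK (12.25 and 5.18).

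Upstream of ATF4 stand the eIF2 kinases and the eIF2 subunits. Among the mRNAs of these 7 genes 1 (14.3%, beside 17.0% of all genes) was called higher and 0 lower (beside 6.43%), with a median of 0.34. EIF2S2, the beta subunit, had 79.0 and 171.78 FPKM (1.12, under 2-fold with TMM factors or DESeq2 size factors), and EIF2S1, the alpha subunit that is phosphorylated, 231.88 and 149.1 FPKM (-0.64). The 4 kinases had log2 ratios between 0.12 (EIF2AK2) and 0.44 (EIF2AK4). Phosphorylation was not measured. The 9 relatives of the feedback genes are TRIB1, TRIB2, PPP1R15B, the catalytic subunits of protein phosphatase 1 and ubiquitin ligase genes. Of these 1 (11.1%, beside 17.0% of all genes) was higher and 0 were lower (beside 6.43%), with a median of 0.22.

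**Figure D3:**
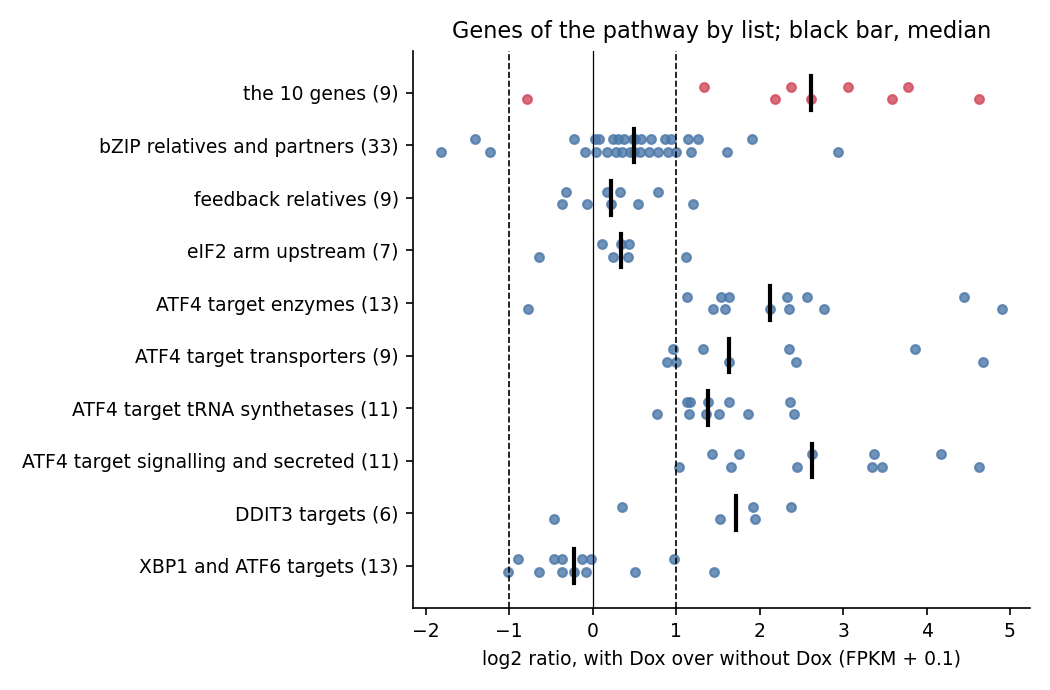
Log2 ratio (Dox-labelled library over without, FPKM plus 0.1) of each gene counted in the 10 genes (red) and in 9 lists of the pathway (blue), with the number counted in brackets, a black bar at the median and dashed lines at 2-fold. The 4 ATF4 target lists have medians from 1.38 to 2.63, the eIF2 arm 0.34 and the XBP1 and ATF6 targets -0.22.

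Of the known ATF4 targets outside the set, 44 of 46 were counted, 39 (88.6%, beside 17.0% of all genes) were higher and 0 lower, with a median of 1.70. With TMM factors 34 were higher, beside 13.1% of all genes. These lists were compiled with results of the same libraries known. Among 13 enzymes of amino acid and glutathione metabolism 12 were higher, led by CTH, which makes cysteine from cystathionine (3.0 and 92.53 FPKM, log2 ratio 4.90), and CHAC1, which degrades glutathione (3.28 and 73.7 FPKM, 4.45). ALDH18A1, the first enzyme of proline synthesis, was the only target with a ratio below 0 (58.52 and 34.09 FPKM, -0.78) and is named after its value was seen. Of 9 amino acid transporters, 6 were higher, with the glycine carrier SLC6A9 (2.83 and 74.63 FPKM, 4.67) and the cystine carrier SLC7A11 (2.15 and 32.5 FPKM, 3.86) first. In the tRNA synthetase list 10 of 11 were higher, or 7 with TMM factors, with SARS1 (44.14 and 234.94 FPKM, 2.41) and WARS1 (162.5 and 836.34 FPKM, 2.36) first. All 11 counted genes of signalling and secreted proteins were higher, or 10 with TMM factors. SESN2 and DDIT4, which both restrain mTOR complex 1, went from 6.87 to 172.87 FPKM (4.63) and from 27.09 to 492.03 FPKM (4.18).

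Downstream of DDIT3, 4 of 6 genes (66.7%) were higher and 0 lower, beside 17.0% and 6.43% of all genes, with a median of 1.72. This list and that of the XBP1 and ATF6 targets were also compiled with results of the same libraries known. BBC3, which encodes the death protein PUMA, had 2.80 and 14.91 FPKM (2.37), and TNFRSF10B, a receptor of TRAIL, 6.98 and 27.18 FPKM (1.95). BCL2, an anti-apoptotic gene that DDIT3 is known to repress, was also among the higher genes (18.54 and 70.67 FPKM, 1.92), and ERO1A, an oxidase of the endoplasmic reticulum, had 28.52 and 20.74 FPKM (-0.46). The remaining genes of the list were PMAIP1 (12.38 and 35.71 FPKM, 1.52) and BCL2L11 (22.28 and 28.53 FPKM, 0.36). BCL2, ERO1A, PMAIP1 and BCL2L11 are named after their values were seen. Since the list mixes BCL2 with genes of the other direction, its count and median are no measure of DDIT3 action, which was not tested. The targets of XBP1 and ATF6, the other branches of the unfolded protein response, had a median of -0.22. Of 13 genes 1 was higher and 1 lower (7.69% each, beside 17.0% and 6.43% of all genes). Nothing is read from counts this small. EDEM1, which helps remove misfolded glycoproteins, had 17.66 and 48.4 FPKM (1.45), and CALR, the chaperone calreticulin, 825.46 and 409.32 FPKM (-1.01). With TMM factors 2 genes of the list were lower, and on TPM, where CALR was short of 2-fold, 0 were.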

How the data were processed

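Poly(A) RNA of ARP1-SRD5A1-KD cells was read in pairs of 150 bases, 1 library per label. The authors deposited 1 table per library with the expected count, TPM and FPKM of each gene, its length, and annotation text, which was not used. The columns are in the format of RSEM. The submitters' processing notes name Bowtie 0.12.2, HISAT2 2.1.0, StringTie 1.3.4d and hg19 without roles, whereas 202888 of 204675 listed transcripts are in GENCODE 29 (GRCh38), which gave positions. The expected counts that the authors deposited are estimates and need not be whole. FPKM sums to 911506 and 852316, so the same FPKM is a larger TPM in the Dox-labelled library.

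The log2 ratio used a pseudocount of 0.1 FPKM, and genes reaching 1 FPKM in either library were counted at 2-fold. The study used edgeR to call genes, but dispersion cannot be estimated with 1 library per condition, so edgeR 4.0.16 and DESeq2 1.42.0 (R 4.3.3) provided scaling factors only, from rounded counts of genes with at least 10. Python 3.11.15, pandas 2.3.3, numpy 2.4.6, scipy 1.17.1 and matplotlib 3.10.9 were used, and the steps were tested on simulated data. Members and lists were chosen with earlier results of these data known. Named besides the members are SRD5A1, family members and dimer partners, the 2 genes of each pathway list with the largest ratio in either direction among those with at least 5 FPKM, the 3 nearest to the highest member, and genes overlapping a member (microRNA genes and an overlap of 26 bases left out). Alternatives covered the pseudocount, the filter and the scaling.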

Additional observations from a re-analysis of the deposited data

How the results depend on the processing

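In 8 alternatives, changing the pseudocount, the filter or the scaling, the 8 higher members were past 2-fold and ATF5 had a ratio below 0 in each. A change of the filter cannot move the ratio of a member, so only the pseudocount and the scaling check this statement. The ratios ranged from 4.29 to 4.73 for ATF3, 3.56 to 3.87 for TRIB3, 3.07 to 3.69 for JDP2, 2.84 to 3.15 for DDIT3, 2.40 to 2.71 for PPP1R15A, 2.13 to 2.48 for CEBPB, 1.97 to 2.28 for CEBPG, 1.12 to 1.43 for ATF4 and -1.0 to -0.69 for ATF5. The number of lower members was 1 with DESeq2 size factors, which put ATF5 past 2-fold. The median of the members was 2.40 with DESeq2 size factors, 2.41 with TMM factors, 2.71 on TPM and 2.50 without the filter, where NUPR1 enters as a further higher gene on 2 and 9 counts. The median of all genes was -0.06 with DESeq2 size factors and -0.05 with TMM factors against 0.15, so those scalings move each ratio by about the same amount. The share of all genes that were lower was 10.5% with DESeq2 size factors, 10.3% with TMM factors and 3.46% without the filter, and the share higher was 8.55% without the filter and 10.8% with a pseudocount of 1. The last shift follows from the smaller ratios that a pseudocount gives low genes, and those without the filter from counting all 57485 genes. No paired analysis was possible because each condition has a single library, and for the same reason none could be left out. Depth limits NUPR1 alone among the members.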

Other observations

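The mean length over which reads were set, as the tables list it, differed between the libraries by more for some members than for others. It was 5491 bases for NUPR1 in the untreated-labelled library, on 2 counts, and 1681 in the Dox-labelled library, and for JDP2 1798 and 1562 bases. For CEBPB, which has 1 listed transcript, it was 1956 bases in both, and for PPP1R15A 2347 and 2364.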
